A study of Mus musculus with 18 samples.

Results

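A set of 9 genes used to mark the stem and progenitor cells of the hair follicle (Krt15, Lgr5, Lgr6, Lrig1, Lhx2, Sox9, Nfatc1, Foxc1 and Tbx1) were followed through a bulk RNA-seq study of mouse skin flaps. The members were taken by gene symbol: all 9 were found among the 27743 genes of the expression table, and all 9 passed the filter on low values that left 13078 genes for testing. Flaps in the Control group received nothing after the flap had been made. In the 5 other groups a printed mesh was laid beneath the flap as a spacer, and the groups D15L100, D15L150, D15L200, D100L150 and D150L150 are named for its dimensions. The meshes differed in diameter and spacing, but the labels give neither the unit nor the meaning of D and L. Skin was collected at day 7, a time the series gives for the study with no separate one for Control, and each of the 6 groups had 3 libraries, written here as Control 1, Control 2 and so on. The sources used here state neither strain, sex nor age of the mice, nor if each library is from its own animal. Each p-value therefore rests on the scatter of these libraries alone, and that scatter may be technical.

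Hair follicles renew in cycles of growth, regression and rest from stem cells kept in a niche called the bulge, below the sebaceous gland. Bulge cells are largely quiescent and are held there by transcription factors such as Lhx2, Sox9, Nfatc1, Foxc1 and Tbx1, while Lgr5 marks the lower bulge and the hair germ that starts a new growth phase. Lgr6 and Lrig1 mark cells higher up, near the isthmus that joins follicle, sebaceous gland and epidermis. These cells stay with their own compartment in resting skin, but can move into the epidermis and help to close it after wounding.

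The levels below are FPKM, the deposited unit, in which a gene's fragments are divided by its length and by the size of the library. The 18 libraries held 28422348 to 35327370 fragments, recovered from the steps between FPKM values. Depth was therefore ample for most members, and the smallest counts were 19 fragments for Lhx2 in Control 1 (exact 95% Poisson interval 11.4 to 29.7), 21 for Lgr5 in D100L150 1 (13.0 to 32.1) and 25 for Lgr6 in D100L150 1 (16.2 to 36.9). These intervals cover counting error only. An epithelial marker was high in all groups: Krt14, the keratin of basal epidermal and follicular cells, lay between 788 and 4651 FPKM over the 18 libraries. The libraries also held muscle RNA. The skeletal muscle gene Acta1 averaged 3826 FPKM in Control, where Krt14 averaged 1397. Over the spacer groups the means were 2540 for Acta1 and 3351 for Krt14.

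No member passed the test in any of the 15 comparisons made. The members instead varied strongly between libraries of the same group, and they did so together. Control 1, D100L150 1 and D100L150 3 were low for most of them, and D150L150 3 was the highest library for 7 of the 9.

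Krt15 encodes a type I keratin concentrated in bulge cells and lies on chromosome 11 (100131759 to 100135949, GRCm38.p6 in RefSeq). It was the most abundant member per length and the most variable. Its levels were 5.38, 386 and 281 FPKM in Control 1, 2 and 3, 253, 266 and 131 in D15L100, and 133, 214 and 337 in D15L150. They were 419, 173 and 184 FPKM in D15L200, 9.63, 201 and 43.1 in D100L150, and 203, 83.5 and 618 in D150L150. A single Control library was thus far below the other two, and the range from Control 1 to D150L150 3 was 115-fold. The lowest group mean was 84.5 ± 102 FPKM in D100L150 and the highest 301 ± 280 in D150L150 (SD, n = 3 each). Those 2 groups overlapped, and no group stood clear of Control.

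Krt15 varied far more than the main basal keratin, and D100L150 1 and D100L150 3 were low in Krt15 but not in Krt14. Krt14, the type I keratin of the basal layer, was 788 FPKM in Control 1, against 1711 and 1692 in Control 2 and 3. In D100L150 it was 4554, 3966 and 3336. Krt15 was 0.682% of Krt14 in Control 1, against 22.5% and 16.6% in Control 2 and 3. In D100L150 the share was 0.211%, 5.06% and 1.29%, and in D150L150 4.81%, 2.08% and 15.5%. The 9 libraries with D15 spacers lay between 3.96% and 12.3%.

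Lgr5 and Lgr6 are receptors for R-spondins, secreted proteins that strengthen Wnt signalling. Lgr5 lies on chromosome 10 (115450314 to 115587780) and Lgr6 on chromosome 1 (134983300 to 135105374). Lgr5 was at 1.29, 3.03 and 1.86 FPKM in the Control libraries, 2.98, 2.62 and 2.07 in D15L100, and 3.60, 3.35 and 4.86 in D15L150. It was at 3.88, 1.76 and 2.03 FPKM in D15L200, 0.139, 2.58 and 0.382 in D100L150, and 2.21, 0.886 and 6.76 in D150L150. All 3 D15L150 libraries exceeded all Control, D15L100 and D100L150 libraries. Within D100L150, Lgr5 was low in D100L150 1 and D100L150 3 (0.139 and 0.382 FPKM) but not in D100L150 2 (2.58).

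Lgr6 was at 0.125, 1.52 and 1.71 FPKM in Control, 0.997, 2.02 and 1.20 in D15L100, and 2.16, 1.62 and 3.23 in D15L150. It was at 1.56, 1.32 and 1.64 FPKM in D15L200, 0.109, 0.865 and 0.336 in D100L150, and 1.31, 0.975 and 0.875 in D150L150. D100L150 was the lowest group and did not overlap D15L150 or D150L150. Lgr6 was the one member that was lowest of its group in D150L150 3, the library where most others peaked. The ratio of Lgr5 to Lgr6 FPKM was 7.73 in D150L150 3 and 10.3 in Control 1, where Lgr6 had only 28 fragments. It was between 0.908 and 2.99 in the other 16 libraries.

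Lrig1 encodes a membrane protein that restrains signalling through the EGF receptor family and lies on chromosome 6 (94604529 to 94700298). Its levels were 2.28, 5.94 and 4.54 FPKM in Control, 3.85, 4.53 and 3.55 in D15L100, and 4.57, 4.43 and 5.98 in D15L150. They were 6.15, 4.25 and 4.16 FPKM in D15L200, 2.42, 4.48 and 3.28 in D100L150, and 4.53, 3.14 and 9.80 in D150L150. The range was 4.29-fold, much narrower than that of Lgr5 (48.6-fold) or Lgr6 (29.5-fold), and every spacer group overlapped Control.

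Lhx2 encodes a LIM homeodomain factor that maintains bulge cells and lies on chromosome 2 (38339271 to 38369737). Its levels were 0.163, 3.99 and 3.77 FPKM in Control, 3.80, 3.81 and 2.18 in D15L100, and 3.23, 3.08 and 6.84 in D15L150. They were 4.13, 2.74 and 4.26 FPKM in D15L200, 0.422, 2.38 and 0.478 in D100L150, and 2.09, 1.42 and 8.78 in D150L150. The gene showed the same 3 low libraries as Krt15 over a 53.7-fold range. The D15L150 and D100L150 groups did not overlap.

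Sox9 encodes an HMG box factor needed to specify follicle stem cells and lies on chromosome 11 (112782210 to 112787757). Its levels were 2.84, 11.4 and 7.69 FPKM in Control, 5.68, 9.05 and 7.58 in D15L100, and 4.85, 6.03 and 8.20 in D15L150. They were 10.6, 5.17 and 7.58 FPKM in D15L200, 5.11, 9.95 and 3.83 in D100L150, and 8.19, 4.57 and 31.0 in D150L150. The value in D150L150 3 stood well above the other 17, and the groups overlapped throughout.

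Foxc1 encodes a forkhead factor that keeps bulge cells quiescent and lies on chromosome 13 (31806646 to 31810635). Its levels were 1.38, 4.11 and 4.10 FPKM in Control, 3.80, 5.12 and 2.89 in D15L100, and 3.08, 3.28 and 6.66 in D15L150. They were 5.58, 3.82 and 4.54 FPKM in D15L200, 2.22, 4.62 and 1.83 in D100L150, and 3.58, 3.09 and 13.9 in D150L150. Control 1 was the lowest library and D150L150 3 the highest, 10.1-fold apart.

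Tbx1 encodes a T-box factor linked to the self-renewal of bulge cells and lies on chromosome 16 (18580979 to 18590671). Its levels were 1.62, 5.14 and 3.50 FPKM in Control, 2.67, 2.72 and 3.86 in D15L100, and 2.65, 2.66 and 4.45 in D15L150. They were 3.32, 1.78 and 4.36 FPKM in D15L200, 1.09, 3.45 and 1.38 in D100L150, and 2.34, 1.40 and 9.38 in D150L150. Every spacer group overlapped Control.

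Nfatc1 encodes a calcium-regulated factor that holds bulge cells at rest, and it is also active in endothelial cells and osteoclasts. It lies on chromosome 18 (80606205 to 80713071). Its levels were 6.14, 9.20 and 10.2 FPKM in Control, 6.89, 8.63 and 7.55 in D15L100, and 8.14, 7.00 and 8.43 in D15L150. They were 7.55, 7.04 and 8.53 FPKM in D15L200, 5.80, 7.93 and 6.74 in D100L150, and 7.64, 6.33 and 8.70 in D150L150. Nfatc1 was the steadiest member, with a 1.76-fold range, and the only one whose group mean was highest in Control.

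**Figure D1:**
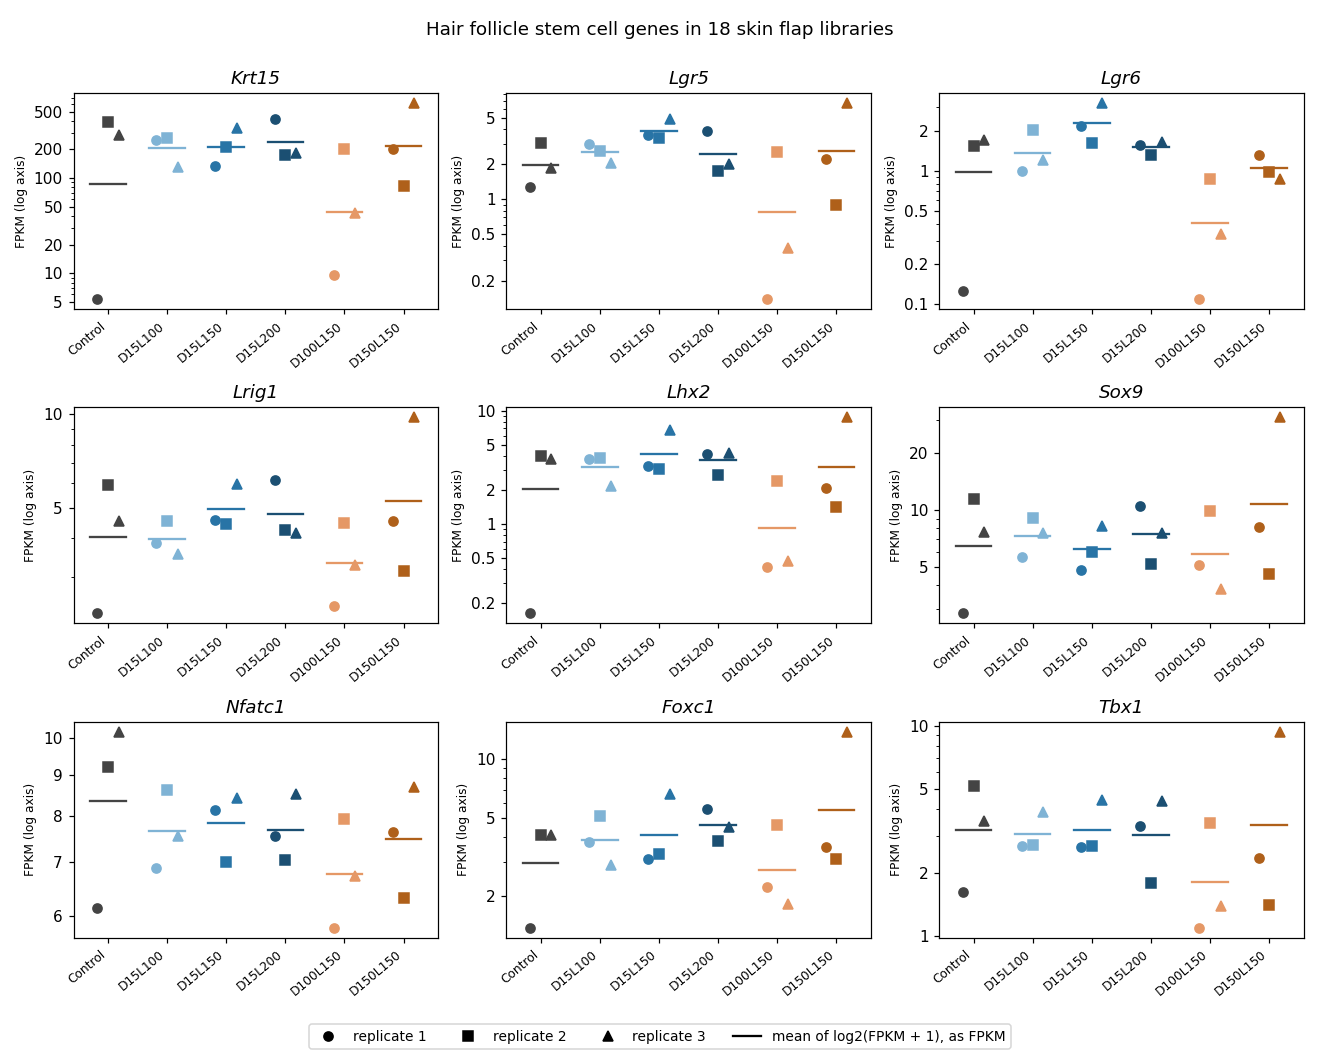
FPKM of the 9 genes (y axis, log scale, a separate range for each gene) in every library of the 6 groups (x axis); the symbol gives the replicate number and the bar the mean of log2(FPKM + 1) turned back to FPKM. Control 1 lies far below the other Control libraries for Krt15, Lhx2 and Lgr6, D100L150 spans low and ordinary libraries, and D150L150 3 is the highest point for 7 genes.

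Promoter sequence was matched in RefSeq (GRCm38.p6) for 5 of the 9 members: Foxc1, Lgr6, Lhx2, Lrig1 and Tbx1. The first 240 bases of the promoter window, which end ahead of the annotated gene start, are printed for 3 transcription factors whose levels moved together across the libraries, to show how differently their upstream sequence is composed. Capitals mark the GC box, GGGCGG, searched on both strands. The stretches are chr2:38339031-38339270 on the plus strand for Lhx2, chr13:31806396-31806635 on the plus strand for Foxc1 and chr16:18590682-18590921 on the minus strand for Tbx1.
Lhx2: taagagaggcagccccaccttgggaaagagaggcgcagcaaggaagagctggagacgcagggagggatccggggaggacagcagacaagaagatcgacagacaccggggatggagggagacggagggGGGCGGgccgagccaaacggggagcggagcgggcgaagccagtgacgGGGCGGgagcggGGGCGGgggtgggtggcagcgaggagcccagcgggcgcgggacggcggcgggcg
Foxc1: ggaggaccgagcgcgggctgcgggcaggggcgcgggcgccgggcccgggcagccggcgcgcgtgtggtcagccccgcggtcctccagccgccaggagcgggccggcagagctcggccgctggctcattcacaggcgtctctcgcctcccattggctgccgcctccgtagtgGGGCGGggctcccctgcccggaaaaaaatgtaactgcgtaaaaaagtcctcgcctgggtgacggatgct
Tbx1: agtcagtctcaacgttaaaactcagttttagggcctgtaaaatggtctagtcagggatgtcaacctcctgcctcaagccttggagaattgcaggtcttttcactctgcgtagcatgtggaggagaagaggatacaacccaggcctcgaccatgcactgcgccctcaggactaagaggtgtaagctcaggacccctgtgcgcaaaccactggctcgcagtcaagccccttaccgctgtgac

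The Lhx2 stretch held 3 GC boxes and 72.1% G and C, the Foxc1 stretch 1 box and 72.5%, and the Tbx1 stretch none and 53.3%. Over all 32851 windows of the same 240 bases the median was 52.1%. Of the windows not printed, those of Lgr6 (135105287 to 135105526) and Lrig1 (94700156 to 94700395), both on the minus strand, reach into the annotated gene. A GC box was present in 4 of the 5 members with a window and in 31.3% of all windows. Other motifs were searched in the same way on both strands. The CCAAT box (CCAAT) was present in 2 of 5 members and 33.0% of all windows, the core of NFAT sites (GGAAA) in 3 of 5 and 54.1%, and a SOX motif (ACAAT) in 2 of 5 and 27.1%. None of the 5 held a TATA box (TATAAA, 12.1% of all windows), the TCF/LEF core (CAAAG, 47.4%), a LIM homeodomain motif (TAATTA, 4.77%), a forkhead motif (TGTTTAC, 3.06%) or a GLI motif (GACCACCCA, 0.222%). No motif of this set contains another, and a match describes only the letters of the window.

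The first comparison set the mean of the 5 spacer groups against Control, which asks whether a mesh under the flap changed the level of these genes. Differences were fitted with limma on log2(FPKM + 1), a scale that understates changes of low genes, and a call needed an adjusted p under 0.05. None of the 9 members was called, where 3.56% of all 13078 genes were. None had an unadjusted p under 0.05 either, against 22.4% of all genes, and voom on the recovered fragments also called none. Of the differences 7 were positive and 2 negative, with a median of 0.17 against -0.04 over all genes.

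Krt15 had the largest difference, 0.86 ± 1.03 (SE; 95% interval -1.36 to 3.07; limma adjusted p = 0.653). Its mean FPKM went the other way, 218 over the spacer libraries and 224 in Control, because the log scale gives the single low Control library more weight. Foxc1 differed by 0.36 ± 0.35 (adjusted p = 0.575) and Lhx2 by 0.33 ± 0.45 (0.691). Lgr6, Sox9, Lgr5 and Lrig1 differed by 0.18, 0.17, 0.14 and 0.11, each by less than its SE. Tbx1 and Nfatc1 were on the other side of 0, at -0.12 ± 0.37 and -0.14 ± 0.13. The intervals of Krt15, Lhx2 (-0.63 to 1.30), Foxc1 (-0.40 to 1.12) and Sox9 (-0.75 to 1.09) reached past 1 log2 unit. Those of Lgr5 (-0.64 to 0.92), Lgr6 (-0.32 to 0.67) and Tbx1 (-0.91 to 0.67) left a change of 1 log2 unit outside in both directions. The same held for Lrig1 (-0.43 to 0.64) and Nfatc1 (-0.41 to 0.13). On log2(FPKM + 1), a rise of 1 unit is more than a doubling of FPKM, most of all for low genes. The intervals therefore still held a doubling of FPKM for Lgr5 and Lgr6 and a halving for Tbx1, from Control means of 2.06, 1.12 and 3.42 FPKM.

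Control 1 decided 7 of these 9 directions. Without it all 9 differences were negative: -1.04 ± 0.83 for Krt15, -0.46 for Tbx1, -0.36 for Lhx2, -0.33 ± 0.12 for Nfatc1, -0.31 for Sox9, -0.23 for Lgr6, -0.20 for Lrig1, -0.05 for Lgr5 and -0.01 for Foxc1. The smallest limma adjusted p among them was 0.346, for Nfatc1. The median of the 9 was -0.31 without Control 1, 0.36 without Control 2, 0.28 without Control 3, 0.10 without D100L150 2 and 0.03 without D150L150 3. The count of all genes called in this comparison was 466 with Control 1 and 0 without it.

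**Figure D2:**
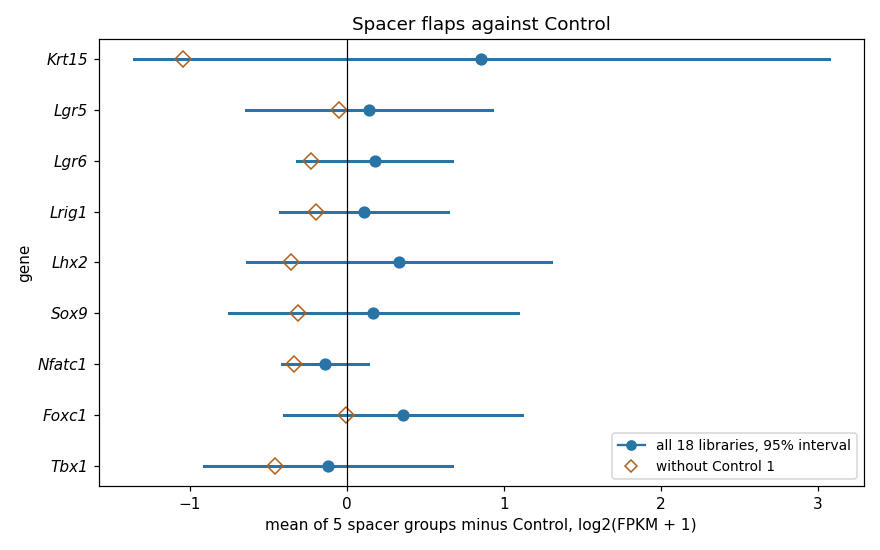
Difference in log2(FPKM + 1), 5 spacer groups averaged minus Control, for the 9 genes, with all libraries and without Control 1; bars are 95% intervals from limma. Above 0 lie 7 genes with all libraries and none without Control 1, and Krt15 has the widest interval (-1.36 to 3.07 with all libraries).

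Each spacer group was then set against the same 3 Control libraries, which all 5 comparisons share. No member was called in D15L100 (0% of all genes called), D15L150 (0%), D15L200 (1.56%), D100L150 (1.38%) or D150L150 (2.42%). At an unadjusted p under 0.05 stood 1 member in D15L150, where 19.8% of all genes did, and none in the 4 other groups, where 3.3% (D15L100), 17.3% (D15L200), 21.1% (D100L150) and 20.4% (D150L150) of all genes did. That member was Lgr6 in D15L150, higher by 0.73 ± 0.30 with a limma adjusted p of 0.197. Without Control 1 that difference was 0.32 ± 0.24 (unadjusted p = 0.193, limma adjusted p = 0.670). Lgr5 was higher by 0.72 ± 0.47 in the same group (adjusted p = 0.404), and it was the 1 member whose D15L150 and Control libraries did not overlap, as was so for 26.4% of all genes. No member was clear of Control in D15L100, D15L200, D100L150 or D150L150, where 6.07%, 25%, 21.8% and 26.4% of all genes were.

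All 9 members were lower in D100L150 than in Control, with a median of -0.49. Krt15 was lower by 0.96 ± 1.33 (difference -0.96), Lgr5 had -0.74 ± 0.47, Lhx2 -0.65 ± 0.58, Tbx1 -0.57 ± 0.47 and Lgr6 -0.49 ± 0.30, and the limma adjusted p-values lay between 0.352 and 0.924. In the 4 other groups 6 to 8 members were higher than in Control. The medians were 0.25 in D15L100, 0.37 in D15L150, 0.21 in D15L200 and 0.32 in D150L150. These directions rested on Control 1. Without it 1 member was higher in D15L100, 4 in D15L150, 2 in D15L200 and 4 in D150L150, and the medians were -0.30, -0.06, -0.10 and -0.22. D150L150 had its largest differences in Krt15 (1.31 ± 1.33), Foxc1 (0.72 ± 0.46) and Sox9 (0.66 ± 0.55), in each of which D150L150 3 was the highest library. They were -0.58, 0.36 and 0.18 without Control 1, and 0.57, 0.13 and -0.06 without D150L150 3, which left 3 of 9 members higher than in Control and a median of -0.07. Without Control 1 the D100L150 differences were larger: -2.86 ± 1.01 for Krt15, -1.34 ± 0.52 for Lhx2 and -0.90 ± 0.24 for Lgr6, with limma adjusted p-values of 0.230, 0.247 and 0.156, and the median was -0.90. The median was -0.20 without Control 2, -0.15 without Control 3 and -0.17 without D100L150 1, with 4, 1 and 2 members then higher than in Control.

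D100L150 had the lowest mean FPKM of the 6 groups for all 9 members, and for 7 of them without Control 2, D100L150 1 or D100L150 3. The highest mean was in D150L150 for Krt15, Sox9, Foxc1, Lrig1 and Tbx1, in D15L150 for Lgr5, Lgr6 and Lhx2, and in Control for Nfatc1. The D150L150 rank rested on D150L150 3: without it the group's means were 143 FPKM for Krt15, 6.38 for Sox9, 3.34 for Foxc1, 3.83 for Lrig1 and 1.87 for Tbx1, none of them the highest of the 6 groups and that of Tbx1 the lowest. Over all 6 groups the moderated F test of limma called none of the 9 (0.0765% of all genes called), with the smallest adjusted p, 0.304, for Lgr6. Lgr6 was also the 1 member with an unadjusted p under 0.05, where 13.4% of all genes had one. No pair of groups compared passed the test for any member, so no neighbours in these orders were shown to differ beyond the spread between libraries.

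Spacer groups that differ in only 1 of their label numbers were compared next. With L150 fixed, all 9 members were lower in D100L150 than in D15L150, with a median of -0.57 against -0.02 over all genes. None was called, and neither was any of the 13078 genes (0%). Lgr5 (-1.46 ± 0.47), Lgr6 (-1.22 ± 0.30) and Lhx2 (-1.42 ± 0.58) had unadjusted p-values of 0.0077, 0.0011 and 0.029, and for these 3 the groups did not overlap. The background was 11.4% of all genes at that p and 17.1% without overlap. Their limma adjusted p-values were 0.412, 0.412 and 0.420. Without D100L150 1, D100L150 3 or D15L150 3, Lgr5 and Lgr6 but not Lhx2 kept an unadjusted p under 0.05, and without D100L150 1 the median was -0.36. Krt15 had the largest difference, -2.23 ± 1.33 (adjusted p = 0.501), and Sox9 the smallest, -0.08 ± 0.55.

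Between D150L150 and D100L150 all 9 members were higher in D150L150, with a median of 0.78 against 0.05 over all genes. Without D150L150 3 the 9 remained positive, but the median was 0.22 and the differences of Sox9, Nfatc1 and Tbx1 were 0.06, 0.03 and 0.01. Krt15 differed by 2.27 ± 1.33, Lhx2 by 1.12 ± 0.58 and Lgr5 by 1.02 ± 0.47. The limma adjusted p was 0.953 or 0.954 for each member, and 0% of all genes were called. At an unadjusted p under 0.05 stood 1 member, Lgr5, against 2.2% of all genes. Lgr6 was the 1 member whose groups did not overlap, against 5.61% of all genes. Between D150L150 and D15L150 the members split, 5 higher and 4 lower, with no call among them or among all genes (0%). Without D150L150 3 all 9 were lower, with a median of -0.56. Lgr6 was lower there by 0.68 ± 0.30 (difference -0.68, limma adjusted p = 0.890) without overlap of the groups, against 12.4% of all genes. It was also the 1 member with an unadjusted p under 0.05 in that comparison, against 4.95% of all genes.

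The mesh labels that share D15 gave small median differences. In all, 8 members were higher in D15L150 than in D15L100, 7 were higher in D15L200 than in D15L100, and 3 were higher in D15L200 than in D15L150. The medians were 0.08, 0.08 and -0.04. Without D15L150 3 the first count was 3 and the last 7. In each comparison 0% of all genes were called. No member had an unadjusted p under 0.05 in these 3 comparisons, where 4.72%, 5.18% and 0.734% of all genes had one. Lgr5 was the 1 member without overlap, between D15L150 and D15L100, against 10.1% of all genes, and D15L200 overlapped both for each member, against 12.4% (D15L100) and 5.95% (D15L150) without overlap. F tests over the L series at D15 and over the D series at L150 called no member, and no gene at all (0% in both). The smallest limma adjusted p of a member was 0.993 in the L series and 0.743 in the D series. Unadjusted p-values under 0.05 belonged to 0 members in the L series (2.89% of all genes) and to 2 in the D series (5.74%), Lgr6 and Lgr5.

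The spread within groups was large for these genes. Pooled over the groups, the SD of log2(FPKM + 1) was 1.77 for Krt15, 0.77 for Lhx2, 0.73 for Sox9, 0.63 for Tbx1, 0.62 for Lgr5, 0.60 for Foxc1, 0.42 for Lrig1, 0.39 for Lgr6 and 0.20 for Nfatc1. The median over all tested genes was 0.21, and 8 of the 9 were above it. Krt15 stood at the 99.8th percentile and Nfatc1 at the 46.9th. The share of the variance that lay between group means was 58.2% for Lgr6, 43.2% for Lgr5 and 36.7% for Lhx2, above the all-gene median of 35.1%. The other 6 were below it, down to 14.9% for Tbx1. This share is not adjusted for the number of groups and is well above zero even where groups do not differ. The F test over all groups called none of these genes.

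The low and the high values fell in few libraries. D100L150 1 was among the 3 lowest libraries for 8 members, Control 1 for 7, D100L150 3 for 7 and D150L150 2 for 5. D150L150 3 was among the 3 highest for 8 members, D15L150 3 for 6 and D15L200 1 for 5. Within its own group, Control 1 was the lowest for all 9 members, while D15L150 3 and D100L150 2 were the highest for all 9. In D150L150 the third library was the highest and the second the lowest for 8 members each. In bulk tissue, fewer cells of a type and less RNA per cell cannot be told apart, and this holds for every level given here.

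**Figure D3:**
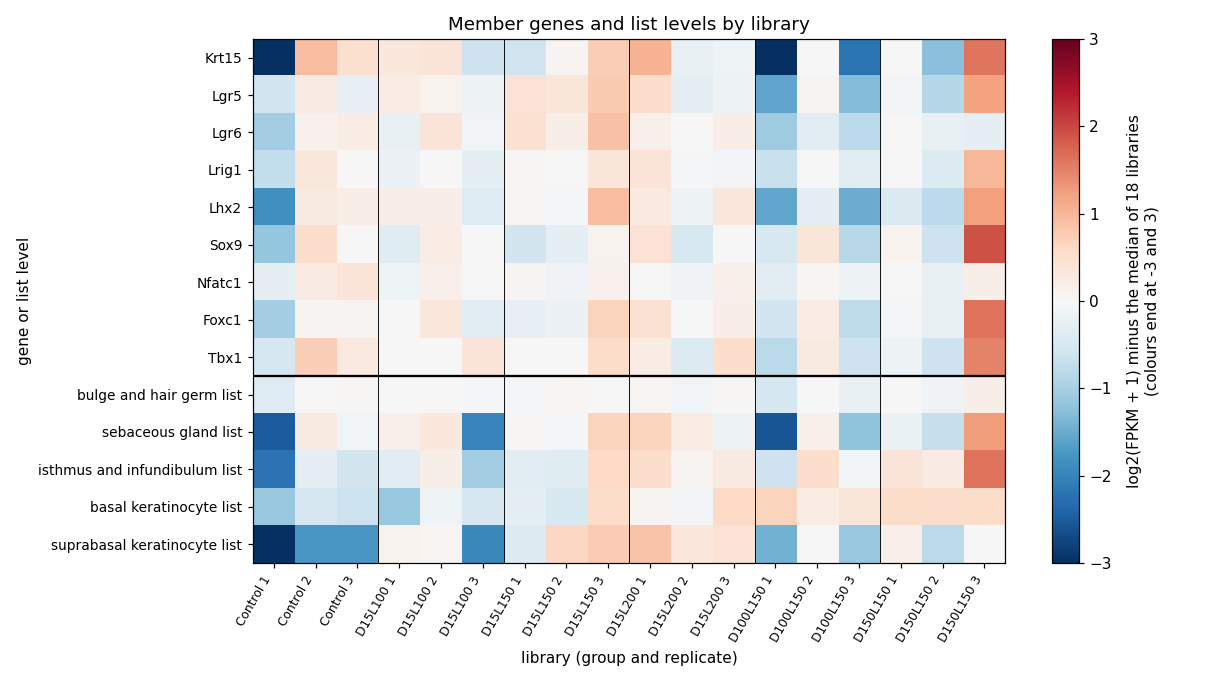
Level of each member (upper block) and of 5 marker lists (lower block, mean of the list's genes) in each library as log2(FPKM + 1) minus the median of that gene or list over the 18 libraries (colour; the scale ends at -3 and 3). Control 1, D100L150 1 and D100L150 3 are low for most genes and D150L150 3 is high for most, while the Nfatc1 values stay near 0; the sebaceous list is low in the same 3 libraries and in D15L100 3.

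The members moved together across libraries. Over the 36 pairs of members, Pearson's r of log2(FPKM + 1) across the 18 libraries ran from 0.32 to 0.92 with a median of 0.77, and Spearman's rho from 0.33 to 0.88 with a median of 0.75. By permutation of the libraries (100000 draws), adjusted over the 189 relations computed, 33 of the 36 pairs passed 0.05 for r and 30 for rho. With the 2 libraries farthest from the median left out, r ran from 0.05 to 0.90 with a median of 0.71. Computed on deviations from the group means, r ran from 0.40 to 0.95 with a median of 0.84, so the relation was as strong within groups as across them. How many pairs of all genes, or genes with the lists below, would pass the same threshold was not computed. The median r of a member with all tested genes was 0.01 to 0.07.

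The closest pair was Lhx2 and Krt15 (r = 0.92, rho = 0.86, permutation p = 1e-05 for r, the smallest these draws can give). Foxc1 and Lrig1 (r = 0.92) and Sox9 and Foxc1 (r = 0.91) followed. The weakest was Lgr6 and Sox9 (r = 0.32, adjusted permutation p = 0.282), which differ most in D150L150 3. These points share their library and depth, and each FPKM value also depends on the total of its library.

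Marker lists of other skin cell types were set beside the members as the mean log2(FPKM + 1) of each list in each library. The sebaceous gland list (10 lipid-synthesis and gland genes such as Scd1, Elovl3 and Awat1, all 10 tested) moved with the members. Its r with the 9 members was 0.63 to 0.91, with 9 of 9 passing by permutation after adjustment for r and 8 for rho. For Krt15 r was 0.91 and rho 0.86, r was 0.79 without the 2 farthest libraries and 0.91 within groups. These lay at the upper end: over the 9 members r was 0.38 to 0.79 without those libraries and 0.62 to 0.91 within groups. The sebaceous list level was 1.80 in D100L150 1, 1.88 in Control 1, 2.38 in D15L100 3 and 3.17 in D100L150 3, and it was highest in D150L150 3 at 5.63. The 3 libraries low for most members and the 1 that was high were thus also low and high in sebaceous genes, while D15L100 3 was low in these genes with Krt15 at 131 FPKM. Whether gland content has a part in the members' levels was not tested.

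**Figure D4:**
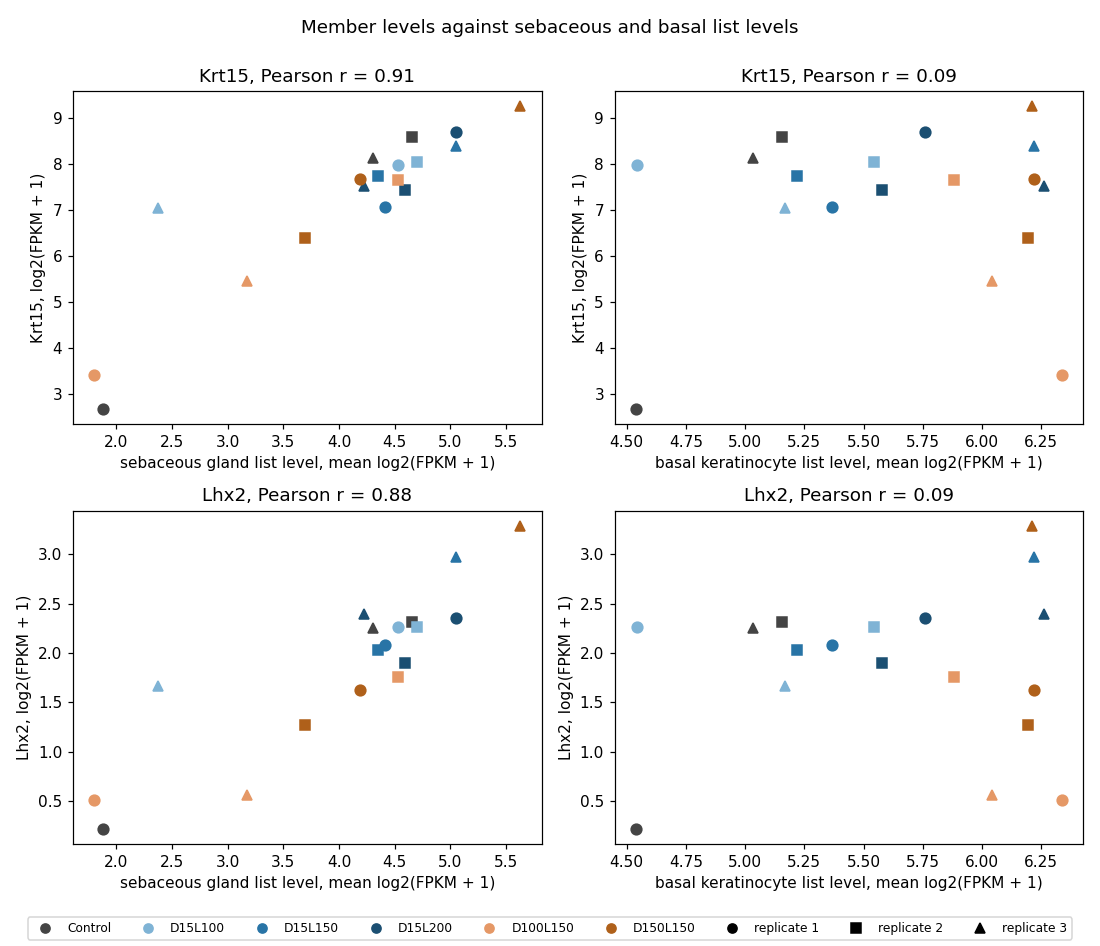
Levels of Krt15 (upper row) and Lhx2 (lower row) against the sebaceous gland list level (left) and the basal keratinocyte list level (right). All axes are log2(FPKM + 1), with lists as the mean of their genes. Each library is 1 point, coloured by group, and the symbol gives the replicate number. Krt15 follows the sebaceous list (r = 0.91), and D100L150 1 combines a low Krt15 level with the highest basal list level (6.34).

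The basal keratinocyte list (10 genes including Krt5, Krt14 and Trp63) did not track the members in the same way. Its r with them was -0.12 to 0.34 and passed for 0 of 9, and within groups r was 0.01 to 0.57. Its level was highest in D100L150 1, at 6.34, where most members were lowest, and was 4.54 in both Control 1 and D15L100 1, its lowest libraries. The skeletal muscle list gave r of -0.26 to 0.21 with 0 of 9 passing. The endothelial list ran against the members, with r of -0.74 to -0.33 and 6 of 9 passing for r and 5 for rho. Its r was -0.65 to -0.07 without the 2 farthest libraries, and its level was highest in Control 1 at 5.65. The fibroblast list gave 0.31 to 0.82 with 5 of 9 passing for r and 3 for rho. Its r was only -0.09 to 0.49 without the 2 farthest libraries, and its level was lowest in D100L150 1 (7.12) and Control 1 (7.46). The suprabasal keratinocyte list gave 0.22 to 0.68 with 5 of 9 passing for r and 1 for rho, and -0.07 to 0.55 without the 2 farthest libraries. The part of these cell types in the members' levels was not tested.

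Of the remaining lists, the isthmus and infundibulum genes gave r of 0.39 to 0.83 with 5 of 9 members passing for r and 4 for rho. Without the 2 farthest libraries their r was 0.10 to 0.60. The list of LRIG, ERBB receptor and ligand genes gave 0.12 to 0.67 with 2 passing for r and 1 for rho. Growing hair follicle genes gave 0.05 to 0.48 with none passing for r and 5 for rho. Dermal papilla genes ran against the members at -0.59 to -0.19 with 3 passing for r and 0 for rho. Macrophage and leukocyte genes gave -0.57 to -0.14 with 2 passing for r and 1 for rho. The lists for satellite cells (-0.51 to -0.06), pericytes and smooth muscle (-0.18 to 0.29), osteoclast-like and giant cells (0.26 to 0.49) and Schwann cells and nerve (-0.30 to 0.41) passed for no member by r. In none of the lists for muscle, satellite cells, vessels, fibroblasts, pericytes, giant cells, leukocytes or nerve was a gene called by limma for the spacer mean against Control.

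Other genes of the bulge and hair germ were taken from a list of 20, of which 19 could be tested. For the spacer mean against Control 0 were higher and 0 lower by limma, with a median of 0.00. In D150L150 against Control 1 of 19 was higher, Cdh3, the P-cadherin of hair germ and basal cells (1.52 ± 0.37, adjusted p = 0.045). Without Control 1 the difference was 1.11 ± 0.34 (limma adjusted p = 0.216), no longer a call. Cdh3 stood at 1.60, 5.94 and 4.45 FPKM in Control and at 11.3, 10.9 and 14.96 in D150L150. The list's level correlated with every member (r = 0.68 to 0.95, 9 of 9 passing by permutation after adjustment).

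In the LGR receptor pathway, 9 of 12 genes could be tested, and 0 were higher and 0 lower for the spacer mean against Control, with a median of 0.20. The 2 with the smallest p were the R-spondin gene Rspo3 (-0.42 ± 0.16, limma adjusted p = 0.153) and the Wnt co-receptor gene Lrp5 (0.26 ± 0.12, 0.206). The list's level moved with all 9 members (r = 0.60 to 0.91), and with 8 of 9 by rho. In the list of the LRIG family, receptors of the EGF receptor family and their ligands, all 8 genes were tested and none was called, with a median of 0.60. Erbb2 (0.64 ± 0.20, adjusted p = 0.093) and Erbb3 (0.63 ± 0.23, 0.128) had the smallest p.

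In lists of the upper follicle and the epidermis some genes were called. In the list of 8 isthmus and infundibulum genes, 2 were higher in the spacer mean than in Control by limma and 0 lower: Krt17, a keratin of follicle and wounded epidermis (1.57 ± 0.31, adjusted p = 0.017), and Plet1, a marker of the isthmus (1.45 ± 0.37, 0.045). In the basal keratinocyte list 1 of 10 was higher, Krt14 (1.28 ± 0.25, 0.016), and in the suprabasal list 4 of 9 were, led by the desmosomal cadherin gene Dsc1 (2.83 ± 0.40, 0.0067). In the sebaceous list 0 of 10 were called, with a median of 0.33, and Awat1, a wax ester synthase gene, had the smallest p (1.60 ± 1.03, adjusted p = 0.381). Without Control 1 no gene was called in this comparison: Krt17 then differed by 1.20 ± 0.33 (adjusted p = 0.224), Plet1 by 1.45 ± 0.46 (0.278), Krt14 by 0.91 ± 0.24 (0.208) and Dsc1 by 2.46 ± 0.45 (0.127).

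Among 12 genes of the growing hair follicle only 5 passed the filter, and 1 was higher in the spacer mean, Dlx3, a homeodomain factor of the hair matrix and upper epidermis (1.44 ± 0.33, limma adjusted p = 0.031, and 1.18 ± 0.38 and 0.301 without Control 1). Krt71, a keratin of the inner root sheath of growing hairs, was at 18.8 FPKM in D15L150 2 and at 0.533 or less in the other 17 libraries. In the libraries where members stood apart, Krt71 was at 0 FPKM in Control 1 and in D100L150 1, 0.016 in D100L150 3 and 0.382 in D150L150 3. Shh, the signal that drives the growth phase, was at 0.111, 0.696, 0.085 and 0.078 FPKM in those 4 libraries. Of 10 dermal papilla genes 5 were tested, with none called and a median of -0.31. The smallest p belonged to Sox2 (-0.70 ± 0.21, adjusted p = 0.082) and Sox18 (-1.12 ± 0.35, 0.088), the latter also expressed in vessels.

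The genes most like each member across the 18 libraries were taken as the 3 with the highest Pearson r of log2(FPKM + 1), as a description. Krt15 was followed most closely by Aadac (0.97), Apoc1 (0.97) and Dapl1 (0.95), and Lhx2 by Epb41l4b (0.96), Rnf167 (0.95) and Tfap2b (0.95). Lgr5 was closest to Arhgef19 (0.95), Id4 (0.93) and Rassf9 (0.93). Lgr6 was closest to Gli1 (0.92), a target of Hedgehog signalling, then Lrp4 (0.89) and Grap2 (0.89). All of these genes had their lowest library in Control 1 or D100L150 1, which their choice by r with the members makes likely in advance.

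Sox9 was closest to Hoxc13 (0.94), a homeobox gene of the hair shaft, then Afdn (0.93) and Ddr1 (0.92). Foxc1 was closest to Ddr1 (0.95), Slc16a13 (0.95) and Bcl11a (0.95), and Lrig1 to Efna4 (0.96), Adgra3 (0.96) and Bcl11a (0.95). Tbx1 was closest to Irx4 (0.94), C1qtnf12 (0.92) and Lmo1 (0.92). Nfatc1 had the least close neighbours, Flad1 (0.88), Usp30 (0.84) and Zfp169 (0.83). As background, the median r of a member with all tested genes was 0.01 to 0.07, and between 0.04% and 3.14% of genes had an r above 0.8.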

How the data were processed

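Per the labels' protocols, RNA of the skin samples was isolated with TRIzol, and the VAHTS Universal V6 kit served for the libraries. The authors deposited FPKM values for 27743 genes in 18 libraries. The build mm10 and the tools HISAT2, HTSeq, fastp, DESeq2 and R 3.2.0 appear in the submitters' processing notes without role or order. Annotation and strand of counting: not given in the sources used here. Genes overlapping on opposite strands could therefore share fragments. Values of 27742 genes were whole multiples of 1 fragment (relative tolerance 1e-10), which gave the depth, and the recovery was tested on simulated data.

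The 13078 genes reaching FPKM 1 in 3 or more of the 18 libraries were tested as log2(FPKM + 1) with limma 3.58.1 in R 4.3.3 (mean-variance trend, robust), with 1 mean per group over all libraries and Benjamini-Hochberg adjustment within each of 15 comparisons. The fit was tested on simulated data. Alternatives were another pseudocount, 2 other filters, quantile and TPM scaling, a replicate block, only the groups compared, voom on recovered fragments, basal keratinocyte or skeletal muscle level as covariate, and leaving out each library. Promoters came from RefSeq. The members, the 17 marker lists and the tests were chosen with earlier results of these data known. Genes outside the members are named by rule: per list, up to 4 called genes with the smallest p, or else the 2 smallest p for the spacer mean; and the 3 highest r per member, leaving out predicted genes. Krt71 and Shh are also given where members stand apart.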

Additional observations from a re-analysis of the deposited data

How the results depend on the processing

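No member was called in any of the 433 combinations of a comparison with a setting, over the 15 comparisons and their alternatives. The smallest limma adjusted p was 0.124, for Lgr6 in D15L150 against Control without Control replicate 3. With few libraries and wide spread, this does not show equal levels. For the spacer mean against Control, Lgr5 changed sign with voom (-0.0048), and with the basal keratinocyte level as covariate Lgr6 was -0.33, Lhx2 -0.28, Sox9 -0.41, Foxc1 -0.14 and Lrig1 -0.13; the cause was not tested. Leaving out 1 library at a time, the same difference ran from -0.049 to 0.36 for Lgr5, -0.23 to 0.41 for Lgr6, -0.36 to 0.70 for Lhx2, -0.31 to 0.54 for Sox9, -0.46 to 0.16 for Tbx1, -1.04 to 1.92 for Krt15, -0.0084 to 0.54 for Foxc1 and -0.20 to 0.34 for Lrig1. For D100L150 against Control it ran from -0.60 to 0.25 for Sox9, -2.86 to 0.10 for Krt15, -0.46 to 0.10 for Foxc1 and -0.52 to 0.015 for Lrig1, and for D100L150 against D15L150 from -0.41 to 0.18 for Sox9.

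Among all genes, the 466 calls for the spacer mean became 227 without a filter, 285 with voom, 208 and 0 with the muscle and basal covariates, and 0 to 597 leaving out 1 library (0 without Control 1, 279 without Control 2 or D15L200 1, and 302 without Control 3 or D150L150 1). The replicate block gave 256, with 0 members called. Replicate numbers did not pair the libraries: same-number deviations had r of -0.66 to 0.53 (mean -0.04; 18 of 45 pairs over 0.1), and 6 of 18 libraries correlated best with their own number. Control comparisons of single groups moved likewise: D15L200 from 204 to between 0 and 303, D100L150 from 181 to between 0 and 351, D150L150 from 317 to between 0 and 481 and D15L150 from 0 to at most 239. The F test over all 6 groups went from 10 to between 0 and 187.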

Other observations

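Bulge genes outside the members did not all follow them, by values chosen after they were seen. Krt19, a keratin of bulge cells and of some other epithelia, was at 16.3 FPKM in D100L150 1, where Krt15 was at 9.63, and at 2.52 or less in the other 17 libraries. The bulge and hair germ list as a whole, which includes Krt19, had its lowest level of all libraries in D100L150 1, at 2.65. Shh, from the growing hair follicle list, was also highest in D100L150 1, at 0.696 FPKM. Krt71 in D15L150 2 (18.8 FPKM) came with ordinary member levels: Lgr5 was at 3.35, Krt15 at 214 and Sox9 at 6.03 FPKM in that library.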
